A study of Homo sapiens with 15 samples.

Results

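The collagen hydroxylases and the collagen chaperone were followed in IMR32 cells, an established human neuroblastoma line, after induction of MSX1, a homeodomain transcription factor. The set held 10 genes, taken from the 19775 genes with a single gene symbol on the array: the prolyl 4-hydroxylase subunits P4HA1 and P4HA2, the prolyl 3-hydroxylase family members P3H1, P3H2, P3H3 and P3H4, the lysyl hydroxylases PLOD1, PLOD2 and PLOD3, and the chaperone SERPINH1. They were chosen by name, with the signals of P3H2 at t=8 and t=24 already known, so the P3H2 values against t=0 and within the induced time course are a description without a test. Its difference between induced and control cells at t=48 was tested. The 10 genes had 15 probe sets, of which 11 passed a filter on low signals, and every gene kept at least 1. P3H2 passed only through the groups in which its signal was high: it reached the array median on 8 arrays, 5 of them at t=8 and t=24 and the others in induced cells at t=48.

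All cells carried the same doxycycline-inducible MSX1. Affymetrix arrays were run on 5 groups of 3, namely a start point (t=0), cells given doxycycline and taken at t=8, t=24 or t=48 (the induced cells), and controls kept to t=48 with no doxycycline. The labels give no unit of time, no promoter of the construct and no statement on whether the line was 1 clone. Separate cultures are not stated for the 3 arrays of a group, and p-values therefore speak only to the scatter among these arrays. No group received doxycycline without the construct, so effects of the drug and of MSX1 cannot be told apart.

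Collagen chains are modified in the endoplasmic reticulum before they fold into a triple helix. Prolyl 4-hydroxylases, tetramers of a catalytic alpha subunit and protein disulfide isomerase (P4HB), make the 4-hydroxyproline that keeps the helix stable at body temperature. Prolyl 3-hydroxylases modify a few prolines, and P3H2 acts chiefly on type IV collagen of basement membranes. Lysyl hydroxylases make hydroxylysine, which carries sugars and sets the type of cross-link, and PLOD2 modifies the ends of the chains, the telopeptides. These hydroxylases use 2-oxoglutarate, iron and oxygen. SERPINH1 (HSP47) binds the folded procollagen helix and carries it towards the Golgi.

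The promoters of the 3 genes that stand for the main patterns, a gain of signal after induction (P3H2), a loss (PLOD2) and a changing chaperone (SERPINH1), are given from the RefSeq table of GRCh38.p14. Each runs from 250 bases before to 50 bases after the start of the gene, 5′ to 3′ on the gene's own strand, and capitals mark motif letters found by exact match on either strand. A match describes the letters only.
P3H2, chr3:190122229-190122528, minus strand: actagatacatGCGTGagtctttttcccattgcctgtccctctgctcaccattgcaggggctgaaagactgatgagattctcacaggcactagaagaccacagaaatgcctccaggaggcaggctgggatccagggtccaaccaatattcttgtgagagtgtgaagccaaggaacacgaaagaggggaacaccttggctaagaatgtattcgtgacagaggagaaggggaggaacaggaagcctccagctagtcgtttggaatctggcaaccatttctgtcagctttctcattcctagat
PLOD2, chr3:146161135-146161434, minus strand: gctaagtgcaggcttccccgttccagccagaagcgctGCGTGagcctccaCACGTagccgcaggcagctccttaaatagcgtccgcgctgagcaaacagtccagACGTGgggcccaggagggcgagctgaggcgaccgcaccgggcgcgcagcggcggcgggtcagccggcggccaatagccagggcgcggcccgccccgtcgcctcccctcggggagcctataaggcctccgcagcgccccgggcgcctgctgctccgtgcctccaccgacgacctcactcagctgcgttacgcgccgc
SERPINH1, chr11:75562003-75562302, plus strand: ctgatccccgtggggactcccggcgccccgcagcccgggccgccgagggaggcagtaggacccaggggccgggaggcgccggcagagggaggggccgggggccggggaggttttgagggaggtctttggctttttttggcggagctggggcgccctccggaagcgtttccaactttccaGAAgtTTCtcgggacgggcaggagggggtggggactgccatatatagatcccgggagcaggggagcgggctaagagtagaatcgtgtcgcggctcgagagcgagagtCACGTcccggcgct

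The motifs searched were ACGTG and GCGTG (cores of the hypoxia response element), GAANNTTC (a unit of the heat shock element, its own reverse complement), TAATTG (a homeodomain core) and the endoplasmic reticulum stress element (a CCAAT box and a CCACG box apart by a fixed spacer). Positions give the first base of the match in the printed sequence relative to the start of the gene, with negative values before it, and a minus-strand ACGTG reads CACGT in print. The PLOD2 promoter held GCGTG at -213 and ACGTG at -200 (minus strand) and -146, and the P3H2 promoter held GCGTG at -239. The SERPINH1 promoter held GAANNTTC at -71 and ACGTG at 37 (minus strand). Among the 9 members with a promoter in the table, 6 held ACGTG or GCGTG, against 48.4% of all 35116 promoters of that length. GAANNTTC was found in 2 of the 9 (SERPINH1 and PLOD1), against 6.77% of all promoters. Neither TAATTG (7.38% of all promoters) nor the endoplasmic reticulum stress element (0.0769%) was found in any of the 9. P3H4 was not in the promoter table.

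The arrays carried neuroblastoma transcripts in every group: MYCN signals lay between 4333.8 and 5715.9 and GATA3 signals between 3085 and 3745.9. TH, the first enzyme of catecholamine synthesis, stayed between 0.8 and 11.9. Of the 8 sympathetic markers tested, 3 were called higher and 1 lower in induced than control cells at t=48 (8.55% of all genes were called). In induced cells PHOX2A, CHGA and CHGB signals lay above those of the control. ISL1 (185.7 to 312 against 504.2 to 557.4) and DBH (34.2 to 61.5 against 94.4 to 99.2) lay below. The brighter MSX1 probe set averaged 111 ± 13.6 at the start, 161 ± 22.1 at t=8, 165 ± 20.7 at t=24, 83.2 ± 14.7 in induced cells at t=48 and 50.7 ± 4.52 in the control (SD, n = 3). MSX1 was thus above the control at t=48 but below its own level at t=0, while the other MSX1 probe set averaged 13.2 to 30.4 with its highest mean at t=0. Whether either probe set detects the construct was not tested. Hybridisation controls were weak on 2 arrays (induced replicate 1 at t=24 and induced replicate 3 at t=48, bioC signals of 122.2 and 138.5 against 495.2 to 600.4 on the other arrays). The 3′ to 5′ ratio of beta-actin, a measure of RNA integrity, ran from 1.27 to 1.52 in induced cells at t=48 and from 1.22 to 1.31 in the control. The 3′ control for 18S ribosomal RNA read 150.2 to 172.9 and 76.7 to 94.9 in the same groups, and the part of both measures in the results was not tested. That control read 646.5 on replicate 3 of t=0, above all other arrays. Without that array, PLOD2 kept its calls against t=0 at t=8 (-0.66, adjusted p = 0.00285), t=24 (-0.45, adjusted p = 0.0101) and t=48 (-0.50, adjusted p = 0.00367), as did P3H3 at t=48 (-0.94, adjusted p = 0.0149), SERPINH1 at t=48 (-0.43, adjusted p = 0.0113) and P4HA1 at t=24 (0.44, adjusted p = 0.0365). The calls of SERPINH1 at t=8, P4HA2 at t=24 and P4HA1 at t=48 were lost (adjusted p = 0.126, 0.0746 and 0.0712).

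**Figure D1:**
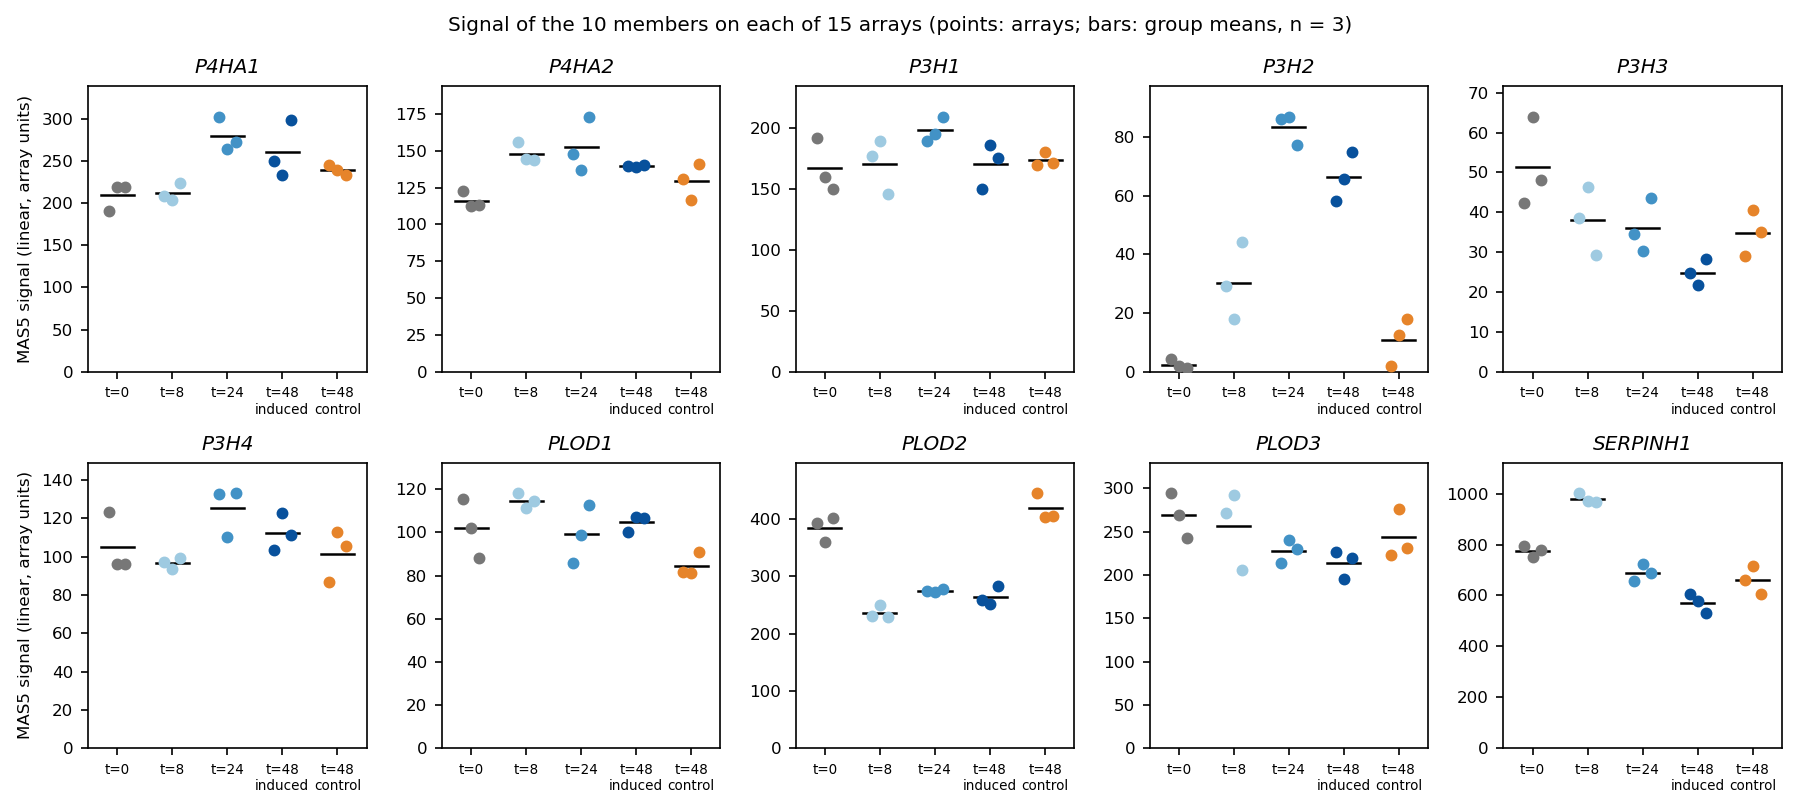
MAS5 signal (linear array units, vertical axes starting at 0) of each of the 10 genes on each of the 15 arrays, by group on the horizontal axis; points are arrays and bars are group means (n = 3). P3H2 signals of 77.2 to 87 at t=24 lie above all P3H2 signals of the control cells (2 to 17.9), and PLOD2 signals in the induced groups (228.5 to 284) lie below those at t=0 and in the control cells (360.5 to 445.3).

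Against control cells of the same age, PLOD2 was lower in induced cells at t=48, and P3H2, chosen with its signals in earlier induced groups known, was higher. Tests used limma on log2(signal + 5.16) with Benjamini-Hochberg adjustment over 12880 genes, and a call means an adjusted p below 0.05. Leaving P3H2 aside, 1 of the 9 other members was called, beside 8.55% of all genes tested. The median log2 difference of the 9 was -0.03, beside -0.01 over all genes. Without the 2 arrays with weak hybridisation controls, the differences were 2.23 for P3H2 and -0.70 for PLOD2 (adjusted p = 0.000622). P3H2 passed the filter only on arrays of induced cells, so its test is not independent evidence of a gain.

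**Figure D2:**
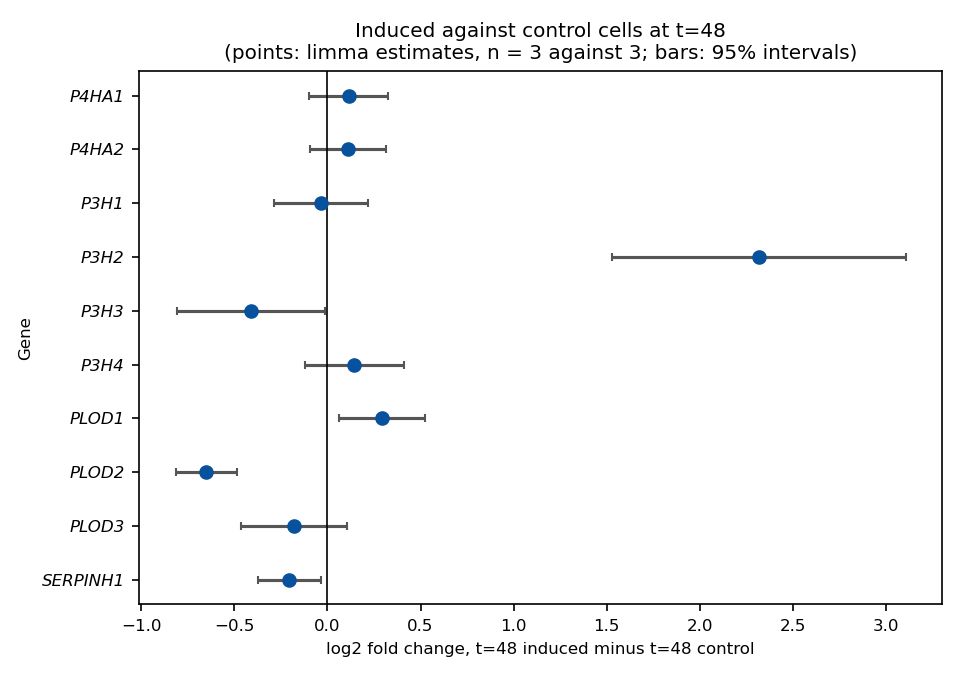
log2 fold change of each gene in induced against control cells at t=48 (horizontal axis), with limma estimates as points (n = 3 against 3) and 95% intervals as bars. P3H2 lies at 2.32 and PLOD2 at -0.65. The P3H2 interval is not independent evidence of a gain, since the gene passed the filter only on arrays of induced cells. The intervals of P3H3, PLOD1 and SERPINH1 also leave out 0, but these 3 genes did not pass the adjusted threshold.

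Over the induced time course, which shares the t=0 arrays between its comparisons, the number of the 9 other members that were called was 2 at t=8 (2.10% of all genes were called), 3 at t=24 (10.8%) and 4 at t=48 (18.1%). From t=8 to t=24, 2 of the 9 were called (6.27% of all genes). In control cells at t=48 against t=0, limma called 0 of the 9 (0.846% of all genes), and 3 had an unadjusted p under 0.05. From t=24 to t=48 it also called 0 of the 9 (3.99% of all genes), with 2 at an unadjusted p under 0.05. Median log2 differences of the 9 lay between -0.12 and 0.04 in the 7 comparisons, beside -0.02 to 0.01 over all genes.

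**Figure D3:**
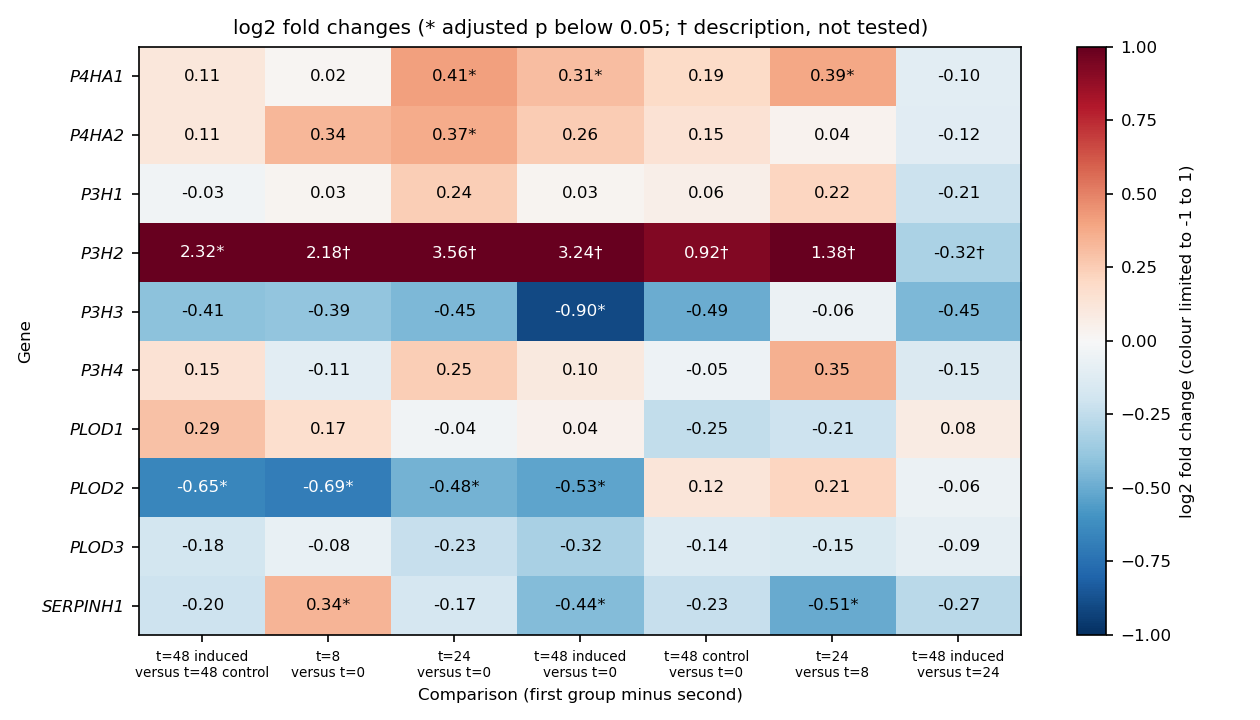
log2 fold changes of the 10 genes (rows) in 7 comparisons (columns, first group minus second), with colour limited to -1 to 1; asterisks mark an adjusted p below 0.05 and daggers mark P3H2 values that were not tested. PLOD2 is lower in all 4 comparisons of induced cells with t=0 or the control, and no gene is marked in control cells against t=0.

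The prolyl 4-hydroxylase alpha subunits rose modestly at t=24 and did not differ detectably from the control at t=48. P4HA1 is the alpha subunit of the major enzyme in most cells. Its signals were 190, 218.8 and 218.4 at t=0, 208.1, 204 and 223.2 at t=8, 302.3, 263.4 and 272.1 at t=24, 249.8, 233.2 and 298.3 in induced cells at t=48, and 244.7, 239.4 and 233.2 in control cells. All t=24 arrays lay above all t=0 and t=8 arrays, whereas induced and control cells overlapped at t=48 and both lay above t=0. P4HA1 rose by 0.41 at t=24 against t=0 (SE 0.097, adjusted p = 0.0182), by 0.39 against t=8 (adjusted p = 0.0357) and by 0.31 at t=48 (adjusted p = 0.0473), all on the log2 scale. In control cells the difference from t=0 was 0.19 (adjusted p = 0.498), and induced minus control was 0.11 (95% interval -0.10 to 0.33, adjusted p = 0.518). These calls had little margin: the one at t=24 was lost without replicate 1 of t=0 (0.34, adjusted p = 0.068) or replicate 1 of t=24 (0.35, adjusted p = 0.0717), the one at t=48 without any of the 6 arrays but induced replicate 2 (adjusted p up to 0.172), and the one between t=8 and t=24 in all 6 (0.0525 to 0.123). Scaling signals to a common array median also ended them (adjusted p = 0.114 at t=24, 0.192 at t=48 and 0.207 between t=8 and t=24).

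P4HA2, the alpha subunit of a second prolyl 4-hydroxylase, had signals of 122.8, 112.3 and 113.3 at t=0, 156.1, 144.1 and 143.4 at t=8, 148, 136.7 and 173.1 at t=24, 139.5, 139.1 and 140.6 in induced cells at t=48, and 130.7, 116.3 and 141.3 in control cells. Every induced array lay above every t=0 array, and the control arrays overlapped with both. P4HA2 rose at t=24 (log2 difference 0.37, SE 0.094, adjusted p = 0.0239). At t=8 the difference was 0.34 (adjusted p = 0.121) and at t=48 it was 0.26 (adjusted p = 0.0773), neither called, and induced minus control was 0.11 (adjusted p = 0.514). The t=24 call ended without replicate 2 or 3 of t=0 (adjusted p = 0.0761 and 0.0746) and without replicate 1 or 3 of t=24 (0.0516 and 0.0884), and on scaling to a common median (0.207). P4HA3, the third alpha subunit, stayed between 0.5 and 6.9 on its 2 probe sets and was not tested. P4HB, the partner subunit, fell by 0.22 at t=48 against t=0 (adjusted p = 0.0478), where 18.1% of all genes were called. It was not called against the control (-0.09, adjusted p = 0.469). In a limma fit over all probe sets, its other probe sets disagreed at t=48 against t=0 (-0.48, adjusted p = 0.0157 and -0.03, adjusted p = 0.859).

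Among the prolyl 3-hydroxylases, P3H2 had the largest differences of the 10 genes. Its signals were 4.3, 1.9 and 1.2 at t=0, 29.1, 18.1 and 44.1 at t=8, 86.2, 87 and 77.2 at t=24, 58.3, 65.6 and 74.9 in induced cells at t=48, and 2, 12.4 and 17.9 in control cells. The 3 induced groups did not overlap with t=0, whereas the control cells did. In order of mean signal, t=24 (83.5 ± 5.44) stood above t=48 induced (66.3 ± 8.32), t=8 (30.4 ± 13.1), the control (10.8 ± 8.07) and t=0 (2.47 ± 1.63; SD, n = 3), and of these neighbours only the control and t=0 overlapped. Induced exceeded control cells at t=48 by 2.32 on the log2 scale (SE 0.36, 95% interval 1.53 to 3.11, adjusted p = 0.00168). The t=48 arrays were not among those known when the gene was chosen, but its gain at t=8 and t=24 was. P3H2 also passed the filter only on arrays of induced cells, 3 of them at t=48. The p and interval above are therefore not independent evidence of a gain. As a description, its log2 differences from t=0 were 2.18 for the t=8 group, 3.56 for t=24, 3.24 for induced cells at t=48 and 0.92 for the control.

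The size of the P3H2 difference rests on low signals. At t=0 its signals were below the lower quartile of all probe sets on every array (4.4 to 6.4 over the 15 arrays), and in control cells below the array median (18.1 to 22.6), so the difference depends on the offset and is not an exact fold. With an offset of 1 in place of 5.16 the difference between induced and control cells was 2.87, and with an offset of 32 it was 1.21. The other P3H2 probe set stayed between 1.8 and 5.8 on all 15 arrays, did not pass the filter and showed no gain, so the gain was seen on 1 of 2 probe sets.

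The other 3 members of the family are known as parts of complexes: P3H1 works with CRTAP and the cyclophilin PPIB, and P3H3 and P3H4 associate with PLOD1. P3H1 signals ranged from 145.9 to 209.6 over the 15 arrays, and no comparison was called; the largest difference from t=0 was 0.24 at t=24 (adjusted p = 0.213), and induced minus control was -0.03 (95% interval -0.29 to 0.22). Its partners CRTAP and PPIB were not called in any comparison either, with differences between induced and control cells of -0.04 (adjusted p = 0.832) and 0.01 (adjusted p = 0.983). P3H4 signals ranged from 86.6 to 133.2, and its largest difference was 0.35 between t=8 and t=24 (adjusted p = 0.11).

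P3H3 went the other way from P3H2. Its signals were 42.4, 64 and 48 at t=0, 38.6, 46.4 and 29.2 at t=8, 34.6, 30.2 and 43.6 at t=24, 24.7, 21.7 and 28.2 in induced cells at t=48, and 29, 40.5 and 35.1 in control cells. The induced cells at t=48 lay below every other group, and the control cells also lay below t=0. P3H3 fell by 0.90 between t=0 and t=48 in induced cells (SE 0.18, adjusted p = 0.00536), a call that held in the 18 alternatives computed for it (-1.02 to -0.55). In control cells the difference from t=0 was -0.49 (adjusted p = 0.313), and induced minus control was -0.41 (95% interval -0.81 to -0.01, adjusted p = 0.201), so a part particular to induction was not called.

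The lysyl hydroxylase PLOD2 fell in every induced group and was the member with the narrowest error. Its signals were 392.9, 360.5 and 401.1 at t=0, 231, 250.7 and 228.5 at t=8, 274.5, 272.1 and 278.6 at t=24, 258.8, 251.8 and 284 in induced cells at t=48, and 445.3, 404.5 and 405.9 in control cells. All 9 arrays of induced cells lay below all 6 arrays of t=0 and control cells. Induced minus control was -0.65 (SE 0.075, 95% interval -0.81 to -0.49, adjusted p = 0.00018), a fall of 36.3%. Against t=0, PLOD2 fell by 0.69 at t=8 (adjusted p = 0.000379), by 0.48 at t=24 (adjusted p = 0.00157) and by 0.53 at t=48 (adjusted p = 0.000534). Scaling to a common median ended the call at t=24 (adjusted p = 0.0554).

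PLOD2 signals in control cells did not differ detectably from t=0 (0.12, 95% interval -0.04 to 0.28, adjusted p = 0.609). In order of mean signal, the control (418.6 ± 23.2) stood above t=0 (384.8 ± 21.5), t=24 (275.1 ± 3.29), t=48 induced (264.9 ± 16.9) and t=8 (236.7 ± 12.2; SD, n = 3); control and t=0, and t=24 and t=48, were not called apart, and t=48 was not tested against t=8. The partial return from t=8 to t=24 (0.21, adjusted p = 0.114) was not called. The second PLOD2 probe set went the same way, with 166.7, 199.5 and 216.1 at t=0, 116.9, 142.2 and 145.1 at t=8, 169.3, 140.6 and 134 at t=24 (1 array overlapping with t=0), 128.5, 137.4 and 143.8 in induced cells at t=48 and 226.1, 210.3 and 192.3 in control cells. In a fit over 30676 probe sets it was called against the control (-0.60, adjusted p = 0.0179; 5.13% of probe sets were called) and against t=0 at t=48 (-0.49, adjusted p = 0.0282; 11.4% called), but not at t=8 (-0.51, adjusted p = 0.0961; 1.11% called) or t=24 (-0.38, adjusted p = 0.107; 6.08% called).

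The other lysyl hydroxylases were not called in any comparison. PLOD1 signals were 81.8, 81 and 91 in control cells and 100.3, 107 and 106.7 in induced cells at t=48, without overlap, and the difference was 0.29 (95% interval 0.06 to 0.53, adjusted p = 0.121), opposite in sign to PLOD2. PLOD3, which also has glycosyltransferase activity, ranged from 195.1 to 294.6; its difference from t=0 was -0.32 at t=48 (adjusted p = 0.107), and from the control -0.18 (adjusted p = 0.433). FKBP10, a peptidyl-prolyl isomerase known to assist PLOD2, was lower in induced than control cells at t=48 by its estimate (-0.77) but was not called (adjusted p = 0.216).

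The chaperone SERPINH1 was highest at t=8 and lowest in induced cells at t=48. Its signals were 795.5, 749.5 and 778.9 at t=0, 1001.9, 970.2 and 965.5 at t=8, 657, 721.9 and 687.3 at t=24, 605.2, 577.4 and 532.1 in induced cells at t=48, and 659.8, 714.4 and 605.3 in control cells. All t=8 arrays lay above all other arrays, and the control cells overlapped with t=24. SERPINH1 rose by 0.34 at t=8 (SE 0.078, adjusted p = 0.0474), fell by 0.51 from t=8 to t=24 (adjusted p = 0.00298) and fell by 0.44 from t=0 to t=48 (adjusted p = 0.00252). Control cells minus t=0 was -0.23 (adjusted p = 0.25, not called), and induced minus control was -0.20 (95% interval -0.37 to -0.03, adjusted p = 0.138, not called). The rise at t=8 had no margin: it was lost on leaving out any of the 6 arrays (adjusted p 0.11 to 0.153) and on scaling to a common median (0.554). The fall from t=8 to t=24 and the fall at t=48 were kept in all 6 omissions but lost on that scaling (adjusted p = 0.0897 and 0.062), and the former also in a fit of only its 2 groups (0.0636).

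SERPINH1 is itself a heat shock gene. The heat shock list (9 genes tested) had 0 called at t=8 (2.10% of all genes were called), with 2 at an unadjusted p under 0.05. From t=8 to t=24, 5 of the 9 fell and none was called higher (6.27% of all genes were called). Among those that fell were HSPH1 (-0.85), a co-chaperone of HSP70, DNAJB1 (-0.73), its J-domain partner, and HSPB1 (-0.53), a small heat shock protein. The median of the 9 was -0.36, beside -0.01 over all genes. Against t=0, 5 of the 9 fell at t=24 (10.8% of all genes were called) and 4 at t=48 (18.1%). DNAJB1 alone fell in control cells (-0.45), where 0.846% of all genes were called. Between induced and control cells at t=48, limma called 0 of the 9 (8.55% of all genes), with 2 at an unadjusted p under 0.05. Of 14 endoplasmic reticulum chaperones, 4 fell at t=24 (10.8% of all genes were called). They were SDF2L1 (-0.97), MANF (-0.71), HSPA5 (-0.43), the main HSP70 of that compartment, and HSP90B1 (-0.41). Between induced and control cells 0 of these 14 were called (8.55% of all genes were called), with 2 at an unadjusted p under 0.05. In the fit over all probe sets, however, another probe set of HSPA5 was higher (0.48, adjusted p = 0.0338) and another of CALR lower (-0.72, adjusted p = 0.0073).

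Of 24 listed collagen genes, the substrates of these enzymes, 15 passed the filter and were tested. Of these, 5 rose in induced against control cells (8.55% of all genes were called) and none was called lower: COL6A3 (3.35, from a control signal of only 4.17 ± 4.20), COL3A1 (1.06), COL6A1 (0.84), COL5A1 (0.76) and COL11A1 (0.72). COL6A3 passed the filter only through groups with signals above those of the control, so its call here is not independent evidence of a gain. The median of the 15 was 0.25, beside -0.01 over all genes. At t=24 against t=0, 8 of the 15 rose (10.8% of all genes were called), led by COL6A3 (3.02), COL1A1 (1.38) and COL3A1 (1.05). COL4A1 and COL4A2, the type IV chains on which P3H2 is known to act, were not called between induced and control cells (-0.15, adjusted p = 0.368 and -0.05, adjusted p = 0.826) or at t=24 against t=0 (0.28, adjusted p = 0.0898 and 0.24, adjusted p = 0.227). Other probe sets of some collagens disagreed, and 1 of COL1A1 gave -0.13 at t=24. Between induced and control cells, 4 others of COL6A1 ranged from -0.54 to 0.46 without a call. In that comparison the other probe sets of COL3A1 (0.52 and 0.82) and COL11A1 (0.29) were higher by estimate but not called. Those of COL5A1 were called higher.

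Some fibroblast markers went with these collagens. The summed signal of the 10 markers was 562.3 to 683.6 at t=0, 840.5 to 865.2 at t=8, 1204.3 to 1551.3 at t=24, 851.8 to 1074.1 in induced cells at t=48 and 724.6 to 748.8 in control cells. COL1A1, itself a collagen, made up 795.5 to 1060 of the signal at t=24. Of the 8 markers that passed the filter, LUM and COL3A1 rose in induced against control cells (8.55% of all genes were called). LUM, COL1A1 and COL3A1 rose at t=24 (10.8% of all genes were called). COL1A1 and COL3A1 were also counted among the collagens above. LUM, a small matrix proteoglycan, read 9.73 ± 3.57 at t=0, 160 ± 27.6 at t=24, 67.8 ± 14.2 in induced cells at t=48 and 7.43 ± 2.25 in the control (SD, n = 3). It reached the array median only in induced cells at t=24 and t=48, so its calls are not independent evidence of a gain. The other 5 were not called in either comparison, with differences between induced and control cells of -0.31 for THY1, -0.24 for ACTA2, -0.20 for DCN, -0.08 for TAGLN and -0.04 for PDGFRB. The median of the 8 was -0.06 in that comparison and 0.50 at t=24. The defining markers FAP (at most 6.6), COL1A2 (at most 25.1) and DCN (at most 26.6) stayed low on all arrays. The part of these markers in the P3H2 and collagen results was not tested. In a bulk culture, a change in the number of cells of a type and a change in RNA per cell cannot be told apart.

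Other genes of collagen maturation, 23 tested, had 2 called higher and 1 lower between induced and control cells (8.55% of all genes were called in either direction). ADAMTS2, the procollagen N-proteinase, had signals of 28.2 ± 1.01 in induced and 1.67 ± 1.19 in control cells at t=48 (SD, n = 3) and was called higher (2.30 with the offset of 5.16). The control signal is below the lower quartile of the arrays, so that size is not an exact fold, and its other probe set was not called (0.62, adjusted p = 0.521). ADAMTS2 passed the filter only through groups with signals above those of the control, so this call is not independent evidence of a gain. Among the lysyl oxidase family, which forms cross-links from lysines and hydroxylysines, LOXL4 rose (0.68) and LOXL3 fell (-0.54). At t=24 against t=0, 2 of the 23 rose (ADAMTS2 by 2.12 and PCOLCE, an enhancer of C-terminal processing, by 0.63) and LOXL3 fell (-0.43). Of all genes, 10.8% were called there in either direction. At t=48 against t=0, 4 rose and 3 fell (18.1% of all genes were called in either direction), with the matrix glycoprotein SPARC (-0.53) and P4HB among those that fell. Other probe sets of SPARC (-0.40, adjusted p = 0.029) and LOX (-0.75, adjusted p = 0.0156), a lysyl oxidase, were lower between induced and control cells in the fit over all probe sets. The list's median between induced and control cells was 0.01, beside -0.01 over all genes.

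P4HA1, P4HA2 and PLOD2 are known hypoxia-inducible genes, so a list of 17 hypoxia targets was set beside them. Between induced and control cells 5 of the 17 rose (8.55% of all genes were called) and none was called lower: NDRG1 (1.91), a stress-responsive gene repressed by MYC proteins, DDIT4 (1.52), an inhibitor of mTORC1, the peptide hormone ADM (1.28), the growth factor VEGFA (1.14) and the demethylase KDM3A (0.40). The list median was 0.11, beside -0.01 over all genes. PLOD2 fell in the same comparison and the differences of P4HA1 and P4HA2 were 0.11 each, not called. The other VEGFA probe sets were not called in that comparison, with differences of -0.02, 0.41 and 0.58. In control cells against t=0, limma called 0 of the 17 (0.846% of all genes), with 4 at an unadjusted p under 0.05. Of 9 other 2-oxoglutarate hydroxylases, 1 was called between induced and control cells, OGFOD1 (-0.35), a ribosomal prolyl hydroxylase, a share near that of all genes (8.55%). Its 3 other probe sets were not called (-0.32 to -0.09), while another probe set of HIF1AN was lower (-0.69, adjusted p = 0.0036) and another of TMLHE higher (1.06, adjusted p = 0.0423). At t=24 against t=0, 1 of the 9 was called higher and 1 lower, beside 10.8% of all genes in either direction. ASPH, an aspartyl hydroxylase of the endoplasmic reticulum, rose by 0.31 and JMJD6 fell by 0.40. The other ASPH probe sets ranged from -0.07 to 0.44 there without a call.

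**Figure D4:**
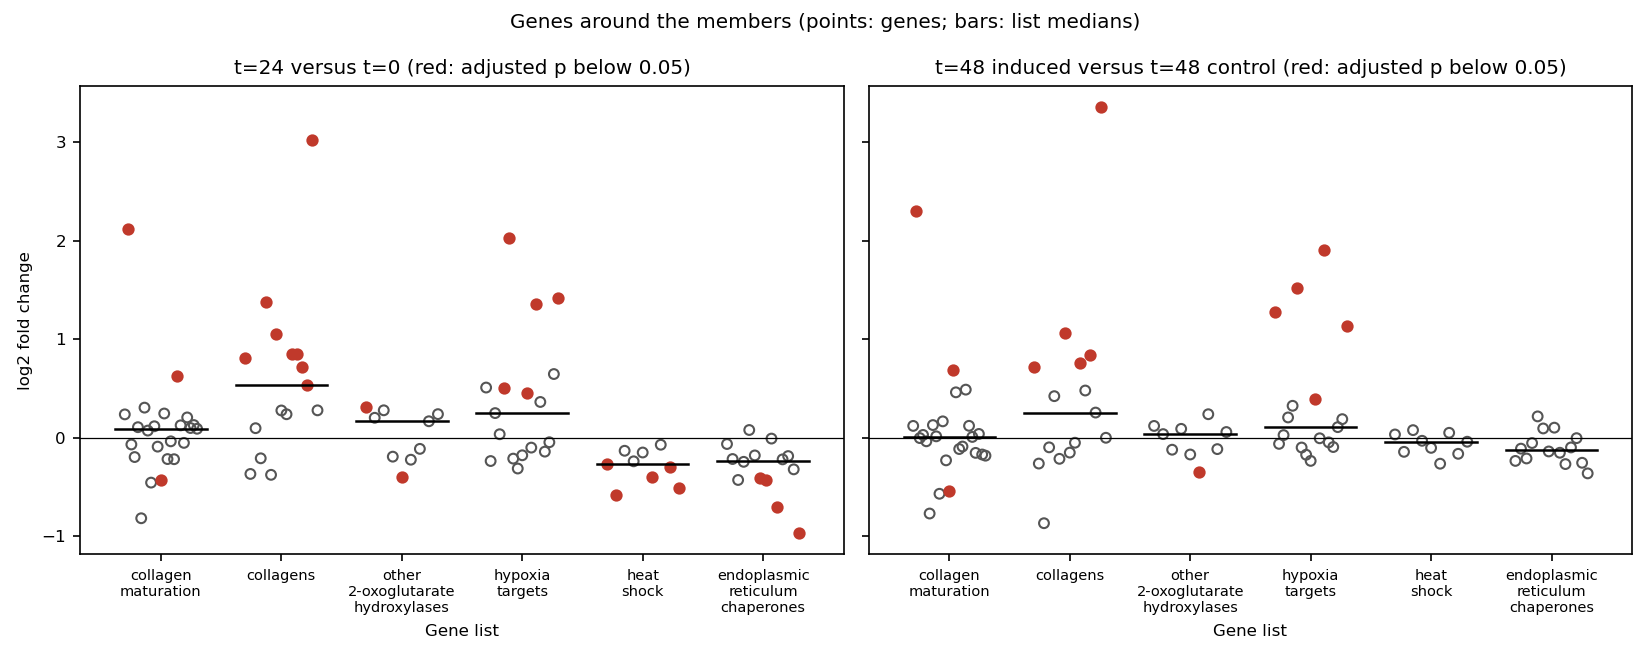
log2 fold change (vertical axis) of each tested gene of 6 lists (horizontal axis), at t=24 against t=0 on the left and in induced against control cells at t=48 on the right; filled red points have an adjusted p below 0.05 and bars are list medians. Collagens have the highest points, with COL6A3 at 3.02 and 3.35, and no heat shock or endoplasmic reticulum chaperone gene is red on the right.

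The genes most like each of 4 members were ranked by Pearson r of log2 values over the 15 arrays, which share the 5 groups, so the values describe common group patterns. For P3H2 they were KLHL29 (r = 0.96), DLX5 (0.96), FOXO3 (0.96), ATP10D (0.95) and PNRC1 (0.95). DLX5 is a homeodomain factor and FOXO3 a forkhead factor. Mean signals of DLX5 were 62.5 ± 7.70 at t=0, 162.4 ± 4.74 at t=24, 151.8 ± 9.48 in induced cells at t=48 and 93.4 ± 6.24 in control cells (SD, n = 3), a pattern with its highest group at t=24 as for P3H2. For PLOD2 they were PRSS12 (0.96), PLSCR1 (0.95), CXCR4 (0.95), GNG12 (0.94) and DLC1 (0.93). The chemokine receptor CXCR4 averaged 151.4 ± 17.6 at t=0, 43.9 ± 2.31 at t=8, 54.1 ± 11.6 in induced cells at t=48 and 148.9 ± 10.8 in control cells, low in the same groups as PLOD2.

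**Figure D5:**
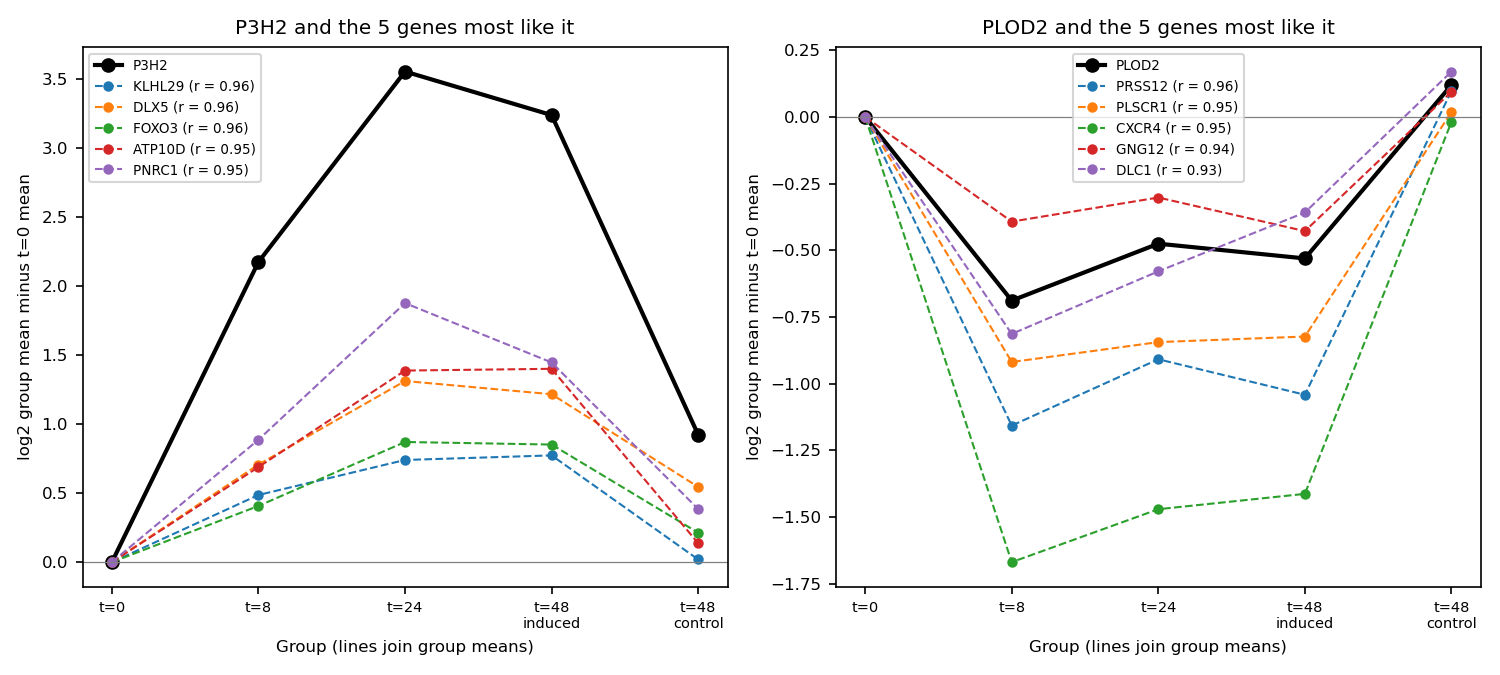
Group means on the log2 scale minus the t=0 mean (vertical axis) over the 5 groups (horizontal axis) for P3H2 (left) and PLOD2 (right), each with its 5 most similar genes; r is Pearson's over 15 arrays. The P3H2 line reaches 3.56 at t=24, and the PLOD2 line lies between -0.69 and -0.48 in the induced groups and at 0.12 in the control.

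The closest genes to P4HA1 reached lower values, from 0.88 (PARD6B) through RBMS3, PYGL and OSGEPL1 to 0.87 (ZNF84), and PYGL, the liver form of glycogen phosphorylase, averaged 76.2 ± 4.87 at t=0 and 137.7 ± 6.25 at t=24. For SERPINH1 they were KCMF1 (0.95), NNAT (0.94), GAS2L1 (0.93), RBM22 (0.93) and MRPS15 (0.93). GAS2L1 averaged 182 ± 3.90 at t=8 and 121.2 ± 5.53 in induced cells at t=48, the highest and lowest of its group means, as for SERPINH1. Within the set, P3H2 and PLOD2 had an r of -0.77 over the 15 arrays, and P3H2 and P4HA2 one of 0.74.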

How the data were processed

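Total RNA of 15 samples of IMR32 cells was labelled with biotin and hybridised to Affymetrix arrays, per the labels' protocols. The authors deposited intensities, MAS5 signals from GCOS per the submitters' processing notes, on a linear scale. In the deposited table the 2% trimmed mean of every array was 100.01, so arrays had been scaled as a whole. Of 54675 probe sets, 41091 had 1 gene symbol in the platform annotation, 1801 had several, 11715 were not listed with a gene and 62 were controls. Symbols were matched through Entrez identifiers for 41043. The genome build of the array annotation is not given in the sources used here, and promoters come from GRCh38.p14.

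Before log2, 5.16 was added to every signal, which is the lower quartile averaged over the arrays. Fold changes are on this scale, which understates changes of low genes. Probe sets at or above the array median on at least 3 arrays were kept, and the brightest was used for each gene (12880 genes). limma 3.58.1 in R 4.3.3 (lmFit, eBayes, two-sided, 5 group means, all 15 arrays) gave adjusted p-values (Benjamini-Hochberg) with a threshold of 0.05. The procedure was tested on simulated data for induced against control cells at t=48. It called 80% of the added 2-fold changes and 37% of the smaller ones, so a true change can go uncalled. Replicates of a group correlated at 0.965 to 0.979, and no 2 arrays were identical. The number of arrays limits the precision. Figures used matplotlib 3.10.9 under Python 3.11.15.

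The members and gene lists were chosen with earlier results of these data known. Named genes were the members, their partners, up to 6 called genes of a list with the largest change, the 5 genes most correlated with each of 4 members, cell markers and MSX1. COL4A1 and COL4A2 were named as known substrates, and genes named for a second probe set that disagreed were chosen after their values were seen. Planned protein comparisons were not made. Alternatives covered the offset, filter, scaling, probe set choice, variance model, replicate block, threshold and single arrays left out.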

Additional observations from a re-analysis of the deposited data

How the results depend on the processing

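Of 1296 alternative values of single genes, 1200 counted as the same, 60 lost a call, 1 gained one and 26 changed sign. The remaining 9 were untested P3H2 values that moved beyond the spread between arrays. Tested values counted as the same if they kept their direction and side of the threshold. Untested P3H2 values did so if they stayed within that spread. The count of called members other than P3H2 stayed at 1 for induced against control cells and at 0 for control cells against t=0 in every alternative run. At t=8 against t=0 it was 2 and became 1 with median centring, scaling to a common median, quantile normalization, no filter, a replicate block, a threshold of 0.01 or a fit of only the groups compared, and 1 to 1 on leaving out each array. At t=24 it was 3 and became 2 with no filter or on dropping the arrays with weak hybridisation controls. It became 1 with median centring, the threshold of 0.01 or only those groups, 0 with scaling to a common median, and 1 to 3 on leaving out each array. At t=48 against t=0 it was 4 and became 2 with that scaling. It became 3 with median centring, quantile normalization, no filter, the replicate block, the threshold of 0.01 or only those groups. It was also 3 with a stricter filter that left P3H3 out and on dropping the arrays with weak hybridisation controls. On leaving out each array it was 3 to 4. From t=8 to t=24 it was 2, became 1 with median centring, quantile normalization, no filter, the replicate block, the threshold of 0.01 or on dropping the arrays with weak hybridisation controls, 0 with scaling to a common median or only those groups, and 1 to 1 on leaving out each array. From t=24 to t=48 it was 0 and became 1 with a trended, robust variance model. The scaling to a common median was chosen after seeing the data. The cause of these differences was not tested, apart from the fewer arrays of the smaller fits and the stricter threshold.

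Scaling to a common median ended the calls of PLOD2 at t=24 (-0.49, adjusted p = 0.0554), SERPINH1 at t=48 against t=0 (-0.46, adjusted p = 0.062) and SERPINH1 from t=8 to t=24 (-0.53, adjusted p = 0.0897), and those of P4HA1 at t=24, at t=48 and between t=8 and t=24, P4HA2 at t=24 and SERPINH1 at t=8 (adjusted p = 0.114, 0.192, 0.207, 0.207 and 0.554). This scaling moved the split of higher and lower calls over all genes from 142 and 128 to 69 and 36 at t=8, from 767 and 627 to 338 and 153 at t=24, and from 444 and 364 to 112 and 30 between t=8 and t=24 (163 and 68 with median centring). All-gene counts between induced and control cells ran from 436 to 1278 over the settings (1101 as reported), from 52 to 313 at t=8 (270), from 475 to 1724 at t=24 (1394), from 929 to 2688 at t=48 against t=0 (2331), from 0 to 160 in control cells (109), from 89 to 1144 between t=8 and t=24 (808) and from 245 to 582 between t=24 and t=48 (514). A filter asking for a mean signal of at least 50 left P3H2 and P3H3 out of the test.

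Sign changes touched only differences that were not called. With quantile normalization they were P3H1 (-0.021) and PLOD1 (-0.019) at t=48 against t=0 and P4HA2 between t=8 and t=24 (-0.012), and on dropping both arrays with weak hybridisation controls PLOD1 at t=24 (0.057) and between t=24 and t=48 (-0.027). On leaving out each array, ranges that crossed 0 were, at t=8, P4HA1 (-0.046 to 0.054), P3H1 (-0.051 to 0.13), P3H4 (-0.16 to 0.0091) and PLOD3 (-0.18 to 0.070); at t=24, PLOD1 (-0.13 to 0.057); at t=48 against t=0, P3H1 (-0.044 to 0.13) and PLOD1 (-0.050 to 0.13). In control cells they were P3H1 (-0.0099 to 0.16) and P3H4 (-0.12 to 0.068), between t=8 and t=24 P4HA2 (-0.053 to 0.11) and P3H3 (-0.21 to 0.078), between t=24 and t=48 PLOD1 (-0.013 to 0.17), and between induced and control cells P3H1 (-0.099 to 0.055).

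No pairing of the arrays by replicate number was seen: 3 of 30 same-numbered pairs had deviations correlated above 0.1 (median 0.01, range -0.28 to 0.21). Of pairs with different numbers, 8 of 60 did (median 0.003, range -0.24 to 0.37). With 3 arrays per group, these values cannot exclude that replicates were handled as sets. With the replicate block, SERPINH1 at t=8 (adjusted p = 0.0753), P4HA1 at t=48 (0.0619) and P4HA1 between t=8 and t=24 (0.0535) were no longer called.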
